A study of Mus musculus with 15 samples.

Results

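Midbrain dopamine neuron genes were followed across 5 groups of mouse hypothalamus samples. The set held 9 genes, Th, Ddc, Slc6a3, Slc18a2, En1, Nr4a2, Pitx3, Foxa1 and Aldh1a1, chosen by name with their group values already known, and they were listed as 14 of the 49404 transcripts and 9 of the 24831 gene names of the table. The study sequenced total RNA of hypothalami from outbred CD-1 mice aged 15 days after birth, and by its title it asks how thyroid hormone acts on the hypothalamus of the F2 generation. There were 15 samples, 3 in Control and 3 in each of PGM, PGF, HM and HF. These codes are kept as written in the labels, which give the groups no genotype, agent, dose or sex, only the strain, age and tissue that all 5 share. The unit was RPKM, reads per kilobase of a transcript scaled to the library's mapped reads, and the authors deposited 1 mean per group, so no value has an SD or a test and the read depth is unknown. Every difference below is a description of 5 means.

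Dopamine neurons of the ventral midbrain lie in the substantia nigra and the ventral tegmental area, just behind the hypothalamus, and send axons to the striatum and cortex. They make dopamine from tyrosine through Th and Ddc, load it into vesicles through Slc18a2 and take it back up from the synapse through Slc6a3, and their identity is kept by transcription factors that include En1, Nr4a2, Pitx3 and Foxa1. The hypothalamus has dopamine neurons of its own, best known for restraining prolactin release. They share Th and Ddc with the midbrain, while En1 and Pitx3 are known as midbrain genes, and histamine and serotonin neurons also use Slc18a2.

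All 9 genes were detected in every group, and their order over the groups took 2 forms. Th, Ddc, Slc6a3, Slc18a2, En1, Pitx3 and Aldh1a1 were each highest in HF, then PGF, HM and Control, and lowest in PGM. Nr4a2 and Foxa1 were highest in Control, then HF, HM and PGF, and were also lowest in PGM. Of the 17481 gene names that averaged 1 RPKM or more across the 5 groups, 69 (0.395%) had the first order and 756 (4.32%) the second. Pitx3, with a mean of 0.85 RPKM, was the 1 member under that level, and 8 members passed it. The summed level of the 9 members was 285 RPKM in Control, 229 in PGM, 339 in HM, 396 in PGF and 462 in HF. Whether neighbouring groups in either order differ beyond the spread between samples cannot be told from means. In bulk tissue, fewer cells of a type and less RNA per cell cannot be told apart.

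**Figure D1:**
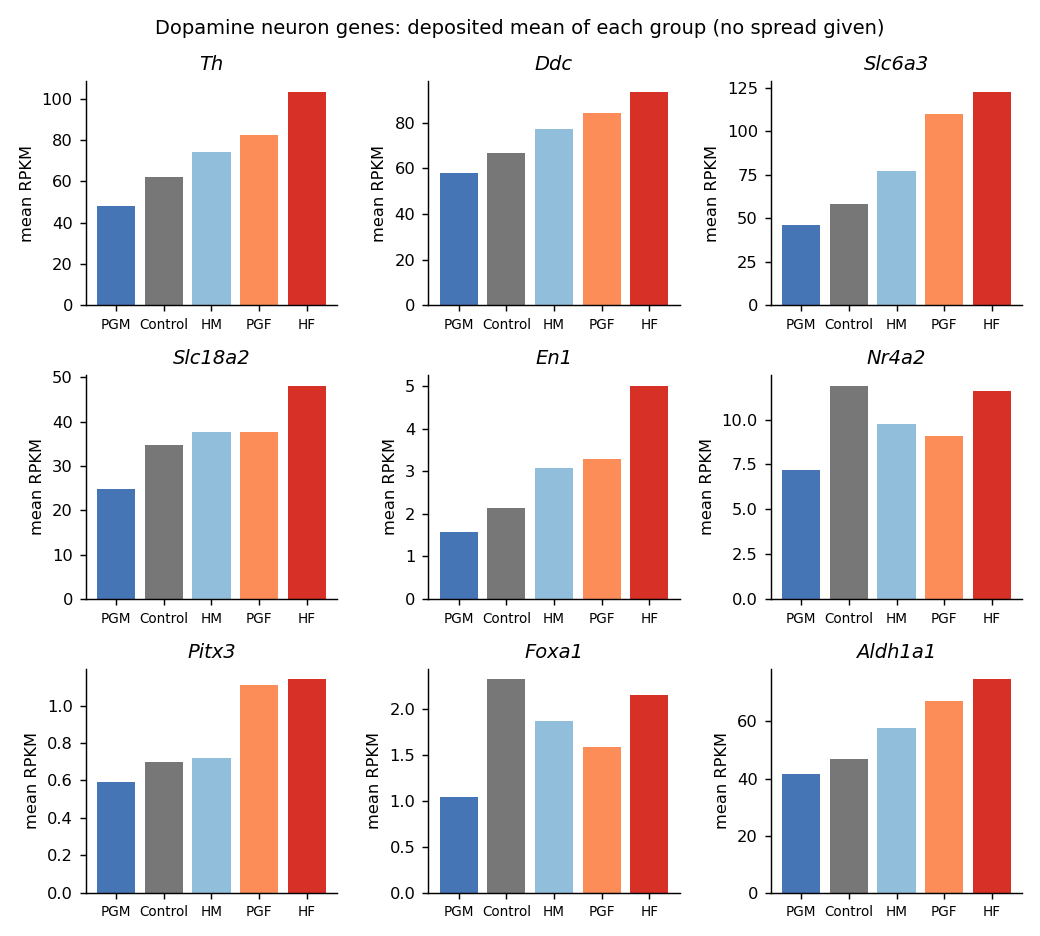
Mean RPKM of each of the 9 dopamine neuron genes (vertical axis, from 0) in the 5 groups (horizontal axis), 1 bar per deposited group mean, with no error bars because only means were used. In 7 panels the bars climb from PGM to HF, for example from 48.1 to 103 RPKM for Th, while Nr4a2 and Foxa1 are highest in Control at 11.9 and 2.32 RPKM.

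The genes of dopamine synthesis came first. Th, which encodes tyrosine hydroxylase, the rate-limiting enzyme (chromosome 7, 142892752 to 142931128, minus strand, GENCODE on GRCm38), was at 62.0 RPKM in Control, 48.1 in PGM, 74.3 in HM, 82.5 in PGF and 103 in HF. HF stood 1.66-fold above Control and PGM was the only group below it. A fold or difference here and below is taken between values of log2(mean RPKM + 0.5), which understates differences of low genes. Ddc, the decarboxylase that turns L-DOPA into dopamine (chromosome 11, 11814101 to 11898144), had the same order over a narrower range, with 66.5 RPKM in Control, 58.05 in PGM, 77.1 in HM, 84.1 in PGF and 93.5 in HF. Its 3 transcripts were alike, with differences in HF against Control between 0.42 and 0.49 on the log2 scale. Ddc is also the second enzyme of serotonin synthesis.

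The 2 transporter genes differed in how far they departed from Control. Slc6a3, the plasma membrane dopamine transporter (chromosome 13, 73536747 to 73578672), was at 58.1 RPKM in Control, 45.95 in PGM, 76.9 in HM, 109.6 in PGF and 123 in HF. HF and PGF lay well above the other groups, at 2.10-fold and 1.88-fold of Control. Slc18a2, the vesicular monoamine transporter (chromosome 19, 59260896 to 59296012), was at 34.7 RPKM in Control, 24.8 in PGM, 37.6 in HM, 37.7 in PGF and 48.2 in HF. The PGF and HM values were nearly equal for this gene. A further transcript of the gene, listed under the name slc18a2 in lower case and so outside the set, had 34.3, 24.6, 37.3, 37.1 and 47.65 RPKM in Control, PGM, PGF, HM and HF.

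The 2 transporters did not keep the same proportion. Slc18a2 stood at 0.597 of the Slc6a3 level in Control, 0.54 in PGM, 0.489 in HM, 0.393 in HF and 0.344 in PGF, as a ratio of RPKM, which is per length. The ratio of Th to Slc6a3 was 1.07 in Control and 1.05 in PGM, against 0.967 in HM, 0.843 in HF and 0.753 in PGF. Both ratios were lower in the 3 groups with more Slc6a3, which is partly built in because Slc6a3 is the denominator. They did not fall in step with it, being lowest in PGF while Slc6a3 was highest in HF. Hdc, the enzyme that makes histamine in tuberomammillary neurons, which also use Slc18a2, was at 35.55 RPKM in Control, 21.45 in PGM, 29.9 in HM, 22.55 in PGF and 35.4 in HF. Hdc was lower than Control in PGM and PGF by 0.72 and 0.65 on the log2 scale. The other genes listed for histamine did not follow it. Hrh3 was higher than Control by 0.56 in PGM and 0.26 in PGF, and Hnmt differed by -0.06 and -0.05. The part of Hdc in the Slc18a2 values was not tested.

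Promoter sequences are shown for 4 members: Th and Slc18a2, which share a motif, Slc6a3, which had the largest difference between groups in RPKM, and Foxa1, which had the other order. Each window runs from 250 bases before to 50 bases after the RefSeq start site (GRCm38.p6) and is written 5′ to 3′ on the gene's strand. All 9 members matched the RefSeq table, by symbol, with 11 windows. The windows were searched on both strands for the cAMP response element TGACGTCA, the Nr4a2-type element AAAGGTCA, the bicoid-type element TAATCC, the homeobox element TAATTA and the forkhead element TGTTTNC, and capitals mark a match. The start sites of the table's own transcripts were not matched to these windows.
Th, chr7:142899946-142900245, minus strand: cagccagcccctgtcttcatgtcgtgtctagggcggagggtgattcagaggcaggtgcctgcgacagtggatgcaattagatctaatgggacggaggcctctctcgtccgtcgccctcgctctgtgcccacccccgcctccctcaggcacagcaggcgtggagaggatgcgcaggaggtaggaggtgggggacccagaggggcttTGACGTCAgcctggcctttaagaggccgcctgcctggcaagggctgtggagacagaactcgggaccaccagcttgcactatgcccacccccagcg
Slc18a2, chr19:59260628-59260927, plus strand: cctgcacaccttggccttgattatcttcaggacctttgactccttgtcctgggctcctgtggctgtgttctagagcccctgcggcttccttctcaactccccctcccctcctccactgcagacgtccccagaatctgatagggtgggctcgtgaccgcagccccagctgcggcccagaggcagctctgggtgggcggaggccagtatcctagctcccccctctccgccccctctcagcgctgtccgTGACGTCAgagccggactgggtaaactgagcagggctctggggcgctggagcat
Slc6a3, chr13:73536497-73536796, plus strand: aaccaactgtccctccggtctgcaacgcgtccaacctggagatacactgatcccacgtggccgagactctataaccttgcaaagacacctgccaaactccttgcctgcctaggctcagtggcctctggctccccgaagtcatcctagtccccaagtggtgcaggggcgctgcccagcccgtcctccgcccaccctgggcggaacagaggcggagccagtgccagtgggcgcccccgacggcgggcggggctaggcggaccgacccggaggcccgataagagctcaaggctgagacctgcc
Foxa1, chr12:57546062-57546361, minus strand: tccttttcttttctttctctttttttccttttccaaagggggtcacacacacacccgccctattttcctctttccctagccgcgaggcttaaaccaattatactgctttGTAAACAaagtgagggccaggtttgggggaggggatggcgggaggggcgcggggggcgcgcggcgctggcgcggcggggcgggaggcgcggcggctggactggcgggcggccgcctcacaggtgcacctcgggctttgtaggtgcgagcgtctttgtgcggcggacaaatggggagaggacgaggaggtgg
The cAMP response element was found in the windows of 2 of the 9 members, Th and Slc18a2, beginning 45 and 4 bases before the start site. It was present in 588 of 32851 windows of the same length (1.79%). The Nr4a2-type element was found in 1 of the 2 Ddc windows, against 1.51% of all windows. The forkhead element was found in 2 of the 11 member windows, those of Nr4a2 and Foxa1, which is close to the 20.5% of all windows that hold it. The bicoid-type and homeobox elements, held by 7.06% and 5.29% of all windows, matched no member's window. None of the 5 motifs was in the Slc6a3 window. A match is a string of letters and not a shown binding site.

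Transcription factor genes split between the 2 orders. En1, the engrailed homeobox factor that midbrain dopamine neurons need to survive (chromosome 1, 120602418 to 120607992), was at 2.13 RPKM in Control, 1.57 in PGM, 3.08 in HM, 3.30 in PGF and 5.02 in HF. HF was 2.10-fold above Control, the same fold as for Slc6a3, at a much lower level. The match depended on the 0.5 added to each mean. With 0.1 added instead, the log2 difference was 1.20 for En1 and 1.08 for Slc6a3. Pitx3, a homeobox factor that acts on Th in nigral neurons (chromosome 19, 46135685 to 46148326), was at 0.70 RPKM in Control, 0.59 in PGM, 0.72 in HM, 1.11 in PGF and 1.14 in HF. The PGF and HF values lay together above the other 3 groups. At this level the pseudocount weighs on the difference, which in HF against Control was 0.45, and 0.63 with a pseudocount of 0.1 in place of 0.5.

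Nr4a2 and Foxa1 did not follow En1 and Pitx3. Nr4a2, the orphan nuclear receptor Nurr1 that switches on Th and Slc6a3 in developing midbrain neurons (chromosome 2, 57106830 to 57124003), was at 11.9 RPKM in Control, 7.18 in PGM, 9.75 in HM, 9.07 in PGF and 11.6 in HF. Its 4 transcripts gave differences between -0.70 and -0.67 in PGM and between -0.04 and -0.01 in HF, against Control. Foxa1, a forkhead factor of midbrain floor plate descendants (chromosome 12, 57540628 to 57546916), was at 2.32 RPKM in Control, 1.04 in PGM, 1.87 in HM, 1.58 in PGF and 2.15 in HF. For both genes HF was close to Control and PGM lowest. The ratio of Foxa1 to En1 was 1.09 in Control, 0.662 in PGM, 0.607 in HM, 0.479 in PGF and 0.428 in HF. Nr4a2 and Foxa1 are also expressed outside the midbrain, Foxa1 in the subthalamic region and Nr4a2 in several forebrain areas.

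Aldh1a1, the retinaldehyde dehydrogenase that marks ventral tier nigral neurons and clears the aldehyde of dopamine (chromosome 19, 20492715 to 20643465), was at 46.8 RPKM in Control, 41.45 in PGM, 57.8 in HM, 67.15 in PGF and 74.7 in HF. It followed the first order, with HF 1.59-fold above Control. Its close copy Aldh1a7, which starts 49488 bases beyond it on the same chromosome, was at 3.35, 2.97, 5.66, 4.21 and 5.72 RPKM in Control, PGM, PGF, HM and HF. Reads that the 2 copies share could have been counted for either, so their values are uncertain as single genes.

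The design compares each group with Control, and a gene was counted when it differed by at least 1.5-fold. In HF, 4 of the 8 members that passed 1 RPKM were counted as higher, namely Slc6a3, En1, Th and Aldh1a1 with differences of 1.07, 1.07, 0.73 and 0.67, beside 0.658% of all 17481 genes. The median over the 8 was 0.58 against 0.02 for all genes. In PGF, 1 member was counted as higher, Slc6a3 at 0.91, beside 2.16% of all genes, and the median was 0.37 against -0.03. In HM no member was counted (1.54% of all genes were, in either direction), and the median was 0.24 against -0.03, with En1 and Slc6a3 at 0.44 and 0.40. The members were chosen with these values known, and the 3 comparisons share the Control mean. Measured from HF instead, Slc6a3 had -0.16 in PGF and the medians were -0.33 in PGF and -0.36 in HM.

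PGM was the group with less. All 9 members were below Control there, where 48.8% of all genes were, and 2 of the 8 were counted as lower, Foxa1 at -0.87 and Nr4a2 at -0.69, beside 2.28% of all genes. Slc18a2, Th, En1 and Slc6a3 had differences of -0.47, -0.36, -0.35 and -0.34, and Ddc, Aldh1a1 and Pitx3 of -0.19, -0.17 and -0.14. The median over the 8 was -0.35 against 0.005 for all genes. Measured from HF, which was the highest group for 7 of the 9 members, all 8 were counted as lower in PGM, with a median of -0.89. The share of all genes counted as lower in PGM than in HF was not computed. PGM was the lowest of the 5 groups for all 9 members and for 18% of all genes.

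**Figure D2:**
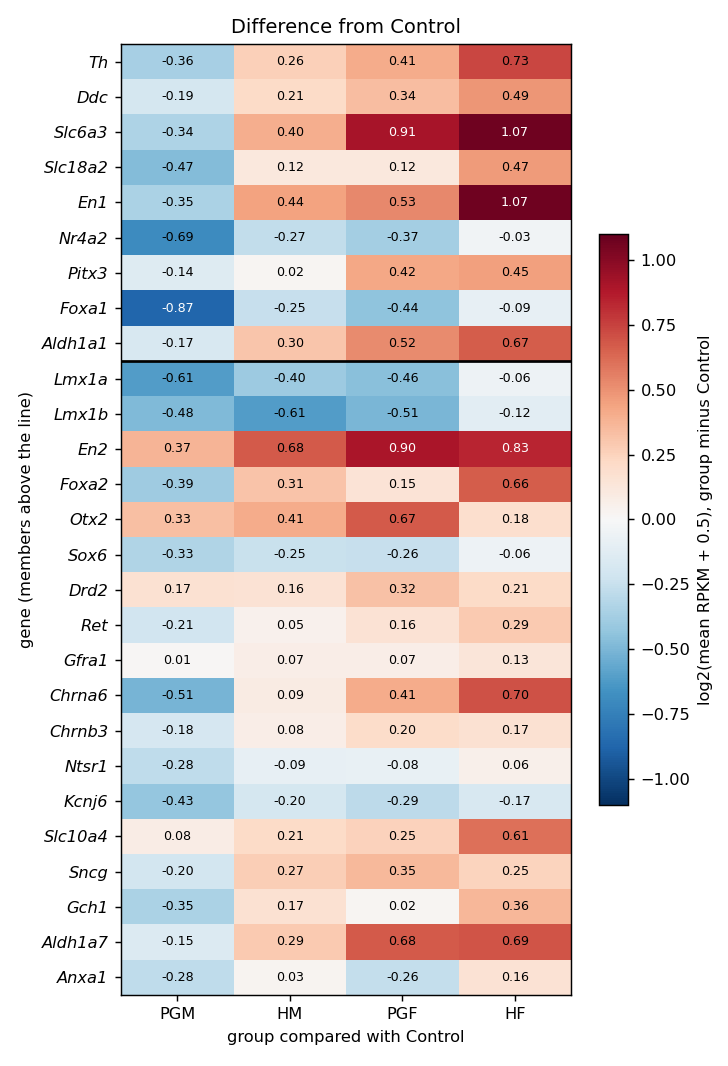
Difference from Control of the 9 members (above the line) and of 18 other midbrain dopamine neuron genes (rows), as log2(mean RPKM + 0.5) of each group (columns) minus Control, with red above and blue below Control. The HF column reaches 1.07 for Slc6a3 and En1, and the PGM column reaches -0.87 for Foxa1.

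Set directly against each other, PGM was below PGF and HM below HF for every member. In PGM against PGF, 5 of 8 members were counted as lower, beside 0.555% of all genes: Slc6a3 at -1.25, En1 at -0.88, Th at -0.77, Aldh1a1 at -0.69 and Slc18a2 at -0.59, and Slc18a2 was not counted with a pseudocount of 1 (-0.58). Slc6a3 was thus 2.37-fold higher in PGF than in PGM. In HM against HF, 2 of 8 were counted as lower, beside 1.31% of all genes, Slc6a3 at -0.67 and En1 at -0.62, and En1 was not counted with a pseudocount of 1 (-0.56) or after quantile normalization (-0.53). The other 7 members lay between -0.47 for Th and -0.16 for Foxa1. The medians over the 8 were -0.64 and -0.36, against 0.03 and -0.05 for all genes. All 9 members were lower in PGM than in PGF and lower in HM than in HF, and so were 25.7% of all genes. These 2 comparisons share no group mean. Slc6a3 and En1 had the largest differences of the 9 in both, and Nr4a2 and Foxa1 had the smallest.

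**Figure D3:**
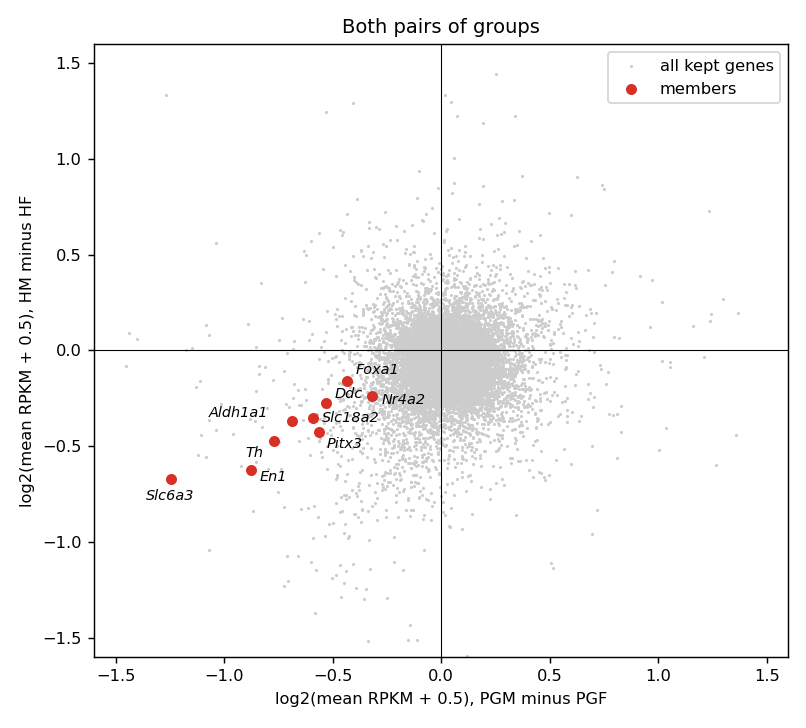
Difference of PGM minus PGF (horizontal axis) and of HM minus HF (vertical axis), both in log2(mean RPKM + 0.5), for all 17481 genes kept (grey) and the 9 members (red), with 19 grey genes outside the axis limits. All 9 members lie in the lower left part, from Nr4a2 at -0.32 and -0.24 to Slc6a3 at -1.25 and -0.67.

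A further list of 18 genes known from midbrain dopamine neurons, also chosen with earlier results of these data known, was measured beside the members. In HF 5 of the 18 were counted as higher and none as lower (0.658% and 0.172% of all genes), with a median of 0.20. In PGF 3 were counted as higher (2.16% of all genes) and in PGM 1 as lower (2.28%), with medians of 0.16 and -0.24. In HM 1 was counted each way (1.54% of all genes in either direction), with a median of 0.08. Chrna6, a nicotinic receptor subunit concentrated in dopamine neurons, was at 16.7 RPKM in Control, 11.5 in PGM, 17.8 in HM, 22.3 in PGF and 27.3 in HF, in the first order. Ret, the receptor for GDNF, and Aldh1a7 shared that order, and 3 genes, Lmx1a, Sox6 and Kcnj6, had the second. En2, the partner of En1, was lowest in Control at 0.65 RPKM and stood at 0.99 in PGM, 1.34 in HM, 1.64 in PGF and 1.55 in HF. Otx2 was at 3.50 RPKM in Control and highest in PGF at 5.87.

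Lmx1a and Lmx1b, homeobox factors that act early in the dopamine lineage, were highest in Control and then in HF, as Nr4a2 and Foxa1 were, although Lmx1b was lowest in HM, and they were singled out after their values were seen. Lmx1a was at 5.79 RPKM in Control, 3.61 in PGM, 4.26 in HM, 4.07 in PGF and 5.55 in HF, and Lmx1b at 3.08 in Control, 2.06 in PGM, 1.84 in HM, 2.02 in PGF and 2.80 in HF. Both are also expressed in the subthalamic and mammillary region of the posterior hypothalamus. Markers of that region were lower in PGM and PGF too, with 5 of 5 genes of at least 1 RPKM below Control in each, where 48.8% and 55.6% of all genes were, and medians of -0.46 and -0.39. In HF 5 of the 5 and in HM 4 were also below Control, with medians of -0.08 and -0.30. The medians of all genes there were 0.02 and -0.03. Among the markers, Lhx1 was at 7.22 RPKM in Control and 4.18 in PGM, and Lhx5 at 11.2 and 6.76. The summed level of the 6 listed genes was 62.1 RPKM in Control, 47.25 in PGM, 53.3 in HM, 47.7 in PGF and 58.3 in HF. Its part in the Nr4a2 and Foxa1 values was not tested.

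None of the 12 listed genes for the cofactor, breakdown and receptors of dopamine had either order in full, and Gch1 and Drd2 among them were also on the list of midbrain dopamine neuron genes above. Of 11 that averaged at least 1 RPKM, 1 was counted as higher in HF and 1 in PGM, both times Drd1a, the D1 receptor of striatal neurons, at 8.04 and 12.2 RPKM against 4.70 in Control, beside 0.658% of all genes higher in HF and 2.34% in PGM. Gch1, the first enzyme of the tetrahydrobiopterin cofactor of Th, was at 5.36 RPKM in Control, 4.10 in PGM, 6.09 in HM, 5.46 in PGF and 7.04 in HF, highest in HF and lowest in PGM as for 7 of the members. The breakdown enzyme genes Maoa and Maob differed from Control by at most 0.22 on the log2 scale in all 4 groups.

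Markers of the dopamine neurons that belong to the hypothalamus, 7 factors and receptors such as Isl1 and Prlr, summed to 73.4 RPKM in Control, 69.3 in PGM, 70.2 in HM, 63.3 in PGF and 75.3 in HF. The sum was lowest in PGF, where 5 of the 7 genes were below Control, beside 55.6% of all genes. Dlx6 and Pax6 were above Control there. As many of the 7 were below Control in PGM and in HM. Dlx2 was the 1 gene of this list counted in any group, at 3.55 RPKM in PGF against 5.59 in Control, beside 1.88% of all genes that were counted as lower in PGF. Of the markers of noradrenaline, adrenaline and serotonin neurons, 9 of 10 stayed under 1 RPKM in every group. No gene of the 5 for noradrenaline and adrenaline, which include Dbh, passed 0.46 RPKM in any group, Slc6a4 did not pass 0.21, and Tph2, the serotonin enzyme of brain, lay between 0.47 and 0.71. The exception was Slc22a3, a monoamine transporter on the serotonin list that is not limited to these neurons, at 4.36 to 5.46 RPKM. The 8 listed genes of other ventral midbrain neurons summed to 27.65 RPKM in Control, 25.4 in PGM, 28.5 in HM, 28.15 in PGF and 32.5 in HF, and none was counted among the 6 that passed 1 RPKM. Pou4f1, which did not pass, was at 0.58 RPKM in Control and 1.45 in PGF, a log2 difference of 0.85. Over the 6 the median was -0.26 in PGM against PGF and -0.15 in HM against HF. For all genes these medians were 0.03 and -0.05.

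Genes of the labelled tissue and of tissues beside it also differed between the groups. The 10 listed hypothalamic transcription factors were all detected and summed to 53.3 RPKM in Control, 32.0 in PGM, 41.9 in HM, 29.3 in PGF and 46.6 in HF. The 8 thalamic genes summed to 152 RPKM in Control, 419 in PGM, 233 in HM, 407 in PGF and 155 in HF. In both lists the PGM and PGF sums lay closer to each other than to Control. Of the 9 members, 7 were below Control in PGM and above it in PGF, and Nr4a2 and Foxa1 were below it in both. The members were chosen with these values known, and the share of all genes with either combination was not computed. The 7 meningeal genes summed to 216 RPKM in Control, 106 in PGM, 131 in HM, 149.6 in PGF and 251 in HF. All 7 were lower in PGM than in PGF and in HM than in HF, as the members and 25.7% of all genes were. In these 2 pairs 17 and 16 of the 18 other midbrain dopamine neuron genes were lower, and 4 and 5 of the 5 vessel genes. Of the 8 thalamic genes 2 and 0 were lower. The 7 pituitary genes summed to 1993 RPKM in PGF and to between 58.1 and 109.9 in the other groups, with Prl listed at 0 in HF. The 7 striatal genes summed to 165.5 RPKM in Control and to between 178 and 263 elsewhere, the 6 choroid plexus genes to 20.5 in Control and between 33.7 and 463 elsewhere, and the 10 eye genes to 15.45 in Control and between 2.84 and 3.60 elsewhere. Astrocyte genes summed to between 788 and 992 RPKM and vessel genes to between 136 and 170.2 over the 5 groups. The part of these tissues in the members' values was not tested.

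**Figure D4:**
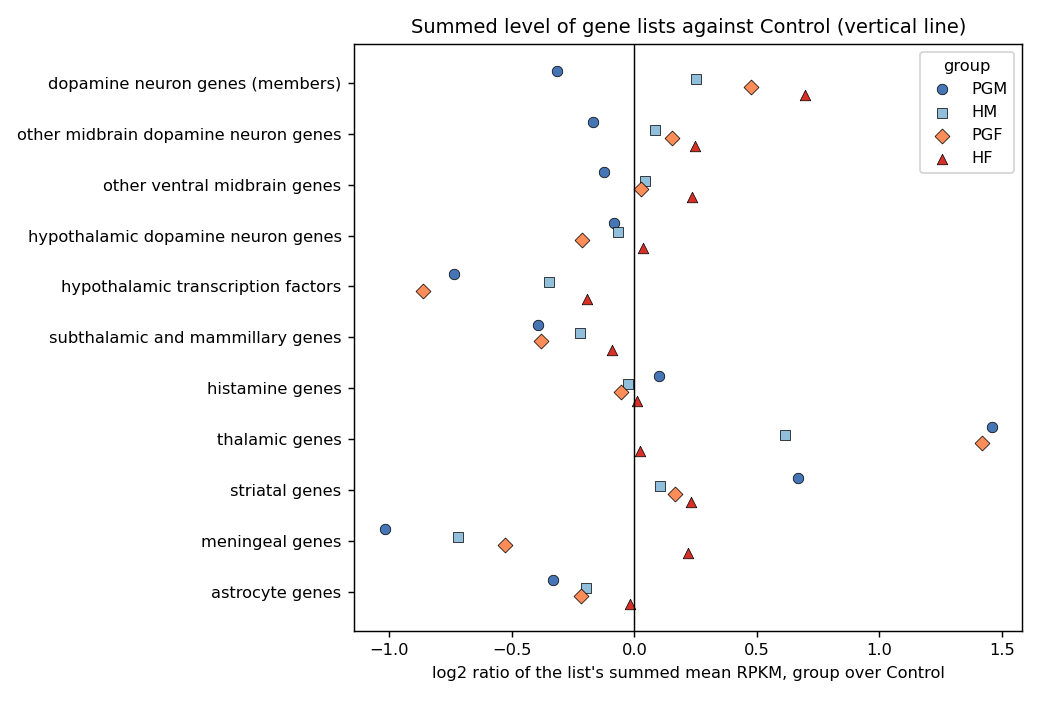
Log2 ratio of the summed mean RPKM of 11 gene lists in each group to that in Control (horizontal axis, 0 is Control), 1 row per list and 1 symbol per group. The members run from -0.32 in PGM to 0.70 in HF, the thalamic genes lie at 1.46 in PGM and 1.42 in PGF, and the meningeal genes run from -1.02 in PGM to 0.22 in HF.

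Sex-linked genes differed between Control and the other groups as well. Ddx3y, on the Y chromosome, was at 2.52 RPKM in Control, 30.4 in PGM, 16.75 in HM, 32.0 in PGF and 15.9 in HF. Xist, the RNA of the inactive X, was at 44.0 RPKM in Control, 14.2 in PGM, 26.4 in HM, 11.6 in PGF and 35.4 in HF. A different share of males cannot be told apart from the groups in the comparisons with Control. Ddx3y was 1.56 RPKM higher in PGF than in PGM, while Eif2s3y, also on the Y chromosome, was lower there (24.75 against 27.5 RPKM). Between HM and HF, Ddx3y was 0.84 RPKM higher in HM, while Eif2s3y was lower there (10.07 against 10.52 RPKM). Xist was also lower in HM (26.4 against 35.4 RPKM). Whether these pairs of groups held the same share of males was not tested.

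Genes with a pattern like that of the members were ranked by the root mean square difference, over the 5 groups, between a gene's centred log2 values and the members' median profile. The 13925 candidates were genes of at least 2 RPKM in 1 group with a name other than a clone name. That level lets in low genes through the group where they are high, and Irf7 met it only in HF and Foxa2 only in HM and HF, where most members were also above Control. The lower-case slc18a2 transcript came first at 0.076, followed by Chrna6 at 0.106, Aldh1a7 at 0.109, the forkhead gene Foxa2 at 0.111, Fbln5 at 0.114, Hfe at 0.116, Hspb8 at 0.12, Mir668 at 0.13, Gch1 at 0.13 and Irf7 at 0.135. Of these 10, Chrna6, Aldh1a7, Foxa2 and Gch1 were on the list of other midbrain dopamine neuron genes, while Fbln5, an elastic fibre protein, and Irf7, an interferon factor, are not known for dopamine neurons. That list was chosen with earlier results of these data known, and its share of the candidates was not computed. Aldh1a7 may share reads with Aldh1a1, and slc18a2 is a transcript of a member's gene. Measured the same way, the members themselves lay between 0.060 for Th and 0.27 for Foxa1. Nearest to Th alone were Chrna6 at 0.073, slc18a2, Foxa2, Aldh1a7 and Fbln5. Foxa2 was at 1.51 RPKM in Control, 1.04 in PGM, 2.0 in HM, 1.74 in PGF and 2.69 in HF, unlike its relative Foxa1.

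Aldh1a1, Pitx3 and Slc18a2, which all had the first order, are on chromosome 19, and the other members are on 6 different chromosomes. The 18 nearest protein-coding genes of at least 1 RPKM, 1 on each side of each member, had a median difference of -0.03 in HF against Control. Among them Aldh1a7, next to Aldh1a1 and with the same order, was counted as higher in HF at 0.69, beside 0.658% of all genes. On one side of Th the nearest such gene was Igf2, 225936 bases away, an imprinted growth factor gene that is also strong in meninges. Igf2 was at 122 RPKM in Control, 58.5 in PGM, 74.8 in HM, 82.9 in PGF and 139.98 in HF, so that in PGF and HM it was below Control where Th was above. The genes that flank Slc6a3, Lpcat1 and Clptm1l, differed from Control in HF by -0.08 and 0.15.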

How the data were processed

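The deposited table held 1 RPKM value per transcript and group, averaged by the authors over the samples of a group, per the file headers, and rounded to 2 decimals. Reads were checked with FastQC and aligned with Novoalign 2.08 to mm10, per the submitters' processing notes. Depth and the way reads were counted (strand, near-identical copies) were not given in the sources used here. RPKM also depends on what other genes take of a library.

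A second header line inside the table (1 row) was dropped. Each gene name took the median of its transcripts, and 17481 of 24831 names averaging 1 RPKM or more were kept. Differences are of log2(mean RPKM + 0.5), counted at 1.5-fold in 6 comparisons, with no test, since no values per library were used. Positions are from GENCODE M21 (GRCm38, called mm10 elsewhere) and promoters from RefSeq (GRCm38.p6). The members, the 17 other gene lists and the motifs were chosen with earlier results of these data known. Other lists name genes that reach 1.5-fold against Control in any group, at most 4 per list, and the 10 genes nearest to the members and 5 nearest to Th are named. Genes outside this rule (such as Lmx1a, Lmx1b, Maoa, Maob, Ret, Sox6, Kcnj6 and flanking genes) were named after their values were seen. A few listed genes are not reported here and were left out of their lists. Drd1 was found under its synonym Drd1a. The calculation was tested on simulated data. Alternatives were pseudocounts of 0.1 and 1, no filter or 3 RPKM, upper quartile and quantile scaling, the highest or mean transcript, a 2-fold threshold, HF as reference and, added afterwards, the slc18a2 row pooled with Slc18a2. Python 3.11.15, numpy 2.4.6, pandas 2.3.3 and matplotlib 3.10.9 were used.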

Additional observations from a re-analysis of the deposited data

How the results depend on the processing

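No paired analysis was possible because the columns are group means that carry no replicate number, and for the same reason no replicate could be left out. The direction of each member median was kept under both pseudocounts, both filters, both scalings and both other transcript choices. With HF in place of Control as the reference, the number of members counted was 8 in PGM (2 with Control), 0 in PGF (1) and 2 in HM (0), all lower, and the medians were -0.89, -0.33 and -0.36. For PGM and PGF against HF the share of all genes was not computed. Slc6a3 in PGF then had -0.16 in place of 0.91. With a 2-fold threshold the numbers counted were 2 in HF, 0 in PGF, 0 in PGM, 1 in PGM against PGF and 0 in HM against HF. The shares of all genes at 2-fold were not computed. In PGF 2 were counted with a pseudocount of 0.1 and 2 with quantile normalization, as En1 came to 0.61 and 0.59. For PGM against PGF 4 were counted with a pseudocount of 1, as Slc18a2 came to -0.58. For HM against HF 1 was counted with a pseudocount of 1 and 1 with quantile normalization, as En1 came to -0.56 and -0.53. With a mean of at least 3 RPKM, 7 members remained, 1 was counted in PGM and the HF median was 0.67. Pooling slc18a2 with Slc18a2 moved no number counted. Depth and the spread between samples are unknown, so how precise any value is cannot be given.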
